A study of Homo sapiens with 5 samples.

Results

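The genes described are those of 4 systems by which cells attract or repel each other and growing axons, namely the semaphorins with their plexin and neuropilin receptors, the netrins with DCC and the UNC5 receptors, the SLIT and ROBO genes, and the ephrins. They were taken by symbol, as every SEMA, PLXN, NRP, NTN, ROBO, SLIT, EFNA, EFNB and UNC5 gene of these families and DCC, and numbered 55 of the 19775 genes on the array, with 136 of the 41091 probe sets that carried 1 gene symbol. Each gene is given by its brightest probe set, that of highest mean value on the 5 arrays, and for the genes described its other probe sets are given where they differed, apart from those that lay near the minimum on all arrays.

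Semaphorins are secreted or membrane-bound ligands that bind plexins, and the secreted SEMA3 proteins mostly also need a neuropilin as co-receptor. Netrin-1 attracts through DCC and repels through UNC5 receptors, SLIT proteins act through ROBO receptors, and ephrins are ligands held on the cell surface that bind Eph receptors on neighbouring cells. All these systems act on the cytoskeleton and on adhesion, integrins included, and in pancreatic ductal adenocarcinoma (PDAC) axon guidance genes, among them SLIT and ROBO genes, are recurrently altered.

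The arrays came from 5 stably transfected populations of MIAPaCa2, an established human line of poorly differentiated PDAC, with 1 array for each. MP2-α2Δ cells carried α2 integrin that lacked the cytoplasmic domain and grew on collagenI (coating of 25 μg/mL), and MP2-α9α2 cells carried a chimera of the α9 ectodomain and transmembrane part with the α2 cytoplasmic domain and were kept on tenascin FNIII (10 μg/mL). MP2-α2/CI cells carried full-length α2 and were kept on collagenI (25 μg/mL), MP2-α2/TC cells carried the same α2 and were kept in standard culture, and MP2-mock cells were kept under drug selection, on a substrate that the labels do not state. Full-length α2 was driven by a cytomegalovirus promoter, the α2 and α2Δ vectors gave resistance to zeocin and the α9α2 vector to G418, and all cells were harvested at about 70% confluence. The transfectants were populations under drug selection, so that each array stands for 1 population and not for replicate cultures. Between MP2-α2Δ and MP2-α9α2 cells the ectodomain, the cytoplasmic domain, the substrate and the drug all differed and cannot be told apart.

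The values are the deposited normalized values, read as log2. The arrays of MP2-α2/CI, MP2-α2/TC and MP2-mock cells shared a minimum of 2.24 and those of MP2-α2Δ and MP2-α9α2 cells a minimum of 2.21, and they were taken as 2 sets normalized separately. A gene counted as above the floor where it exceeded a floor of 2.21 to 2.27, the 95th percentile on its array over 107 probe sets of odorant receptors, and lower values were raised to that floor before a difference was taken. The call is a difference of at least 2-fold, and with 1 array per population no value has an error and no test was made. In these bulk samples fewer cells with a transcript and less transcript per cell cannot be told apart. Of the epithelial markers, KRT8, KRT18 and KRT19 (keratins) were above the floor on all 5 arrays, while EPCAM was above it on none and CDH1 (E-cadherin) on 1. Of 7 mesenchymal or fibroblast markers, 3 were above it on all 5 arrays. These were VIM (vimentin, at 15.48 to 15.85) and the collagen genes COL1A2 (11.97 to 13.08) and COL1A1 (7.18 to 8.11). COL3A1, DCN and LUM were above it on none and PDGFRB on 2. Among the markers of other cells, PTPRC and CD3E (blood), VWF (endothelium) and RBFOX3, GFAP and STMN2 (nervous tissue) were above the floor on none, but other genes of these lists were above it on all 5 arrays. These were 1 of 4 blood markers (CD14, at 2.91 to 3.38), 3 of 5 endothelial markers (PECAM1, CDH5 and CLDN5, at 2.21 to 4.41) and 2 of 7 neural markers (SYP, a synaptic vesicle gene, at 3.83 to 4.22, and MBP, a myelin gene, at 10.53 to 11.91). ITGA2, the α2 gene, read 7.28 in MP2-α2Δ cells by 1 probe set, 3.28 by the other, and its minimum in every other population, those with full-length α2 included, and the 4 ITGA9 probe sets were at the minimum on all 5 arrays. The construct was made from the α2 coding sequence, the part of the transcript that the probe sets read was not checked, and the labels were not checked through them. According to the paper, the transgene has none of the 3′ untranslated sequence that the probes target, and its array analysis found no α2 expression. The 7.28 in MP2-α2Δ cells differs from that statement, and its source was not tested.

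Of the 55 guidance genes, 35 were above the floor on all 5 arrays, 7 on 1 to 4 arrays and 13 on none. Those above it numbered 40 in MP2-α2Δ, 38 in MP2-α9α2, 36 in MP2-α2/CI, 37 in MP2-α2/TC and 36 in MP2-mock cells. These were 65.5% to 72.7% of the guidance genes, near the 62.3% to 65.0% of all genes on the same arrays. The families differed in how many of their genes read over 4 on any array, a level for which no share over all genes is given here. All 8 ephrins did, against 9 of 20 semaphorins, 5 of 11 plexins and neuropilins, 2 of 9 netrin pathway genes, and 3 of 7 SLIT and ROBO genes. The remaining 28 genes read 2.21 to 3.45 on all arrays. They include every SLIT gene, DCC, UNC5B, UNC5C and UNC5D, NTN3, NTN4 and NTN5, ROBO2, NRP2, and the plexins PLXNA2, PLXNA3, PLXNA4, PLXNB1 and PLXNC1. The signal in the SLIT and netrin systems thus lay with ROBO1, ROBO3, ROBO4, NTN1 and UNC5A. NRP2, the other neuropilin, was measured by 11 probe sets, the most of any gene here, and all lay near the minimum. The semaphorins at this low level were SEMA3B, SEMA3E, SEMA3G, SEMA4A, SEMA4G, SEMA5A, SEMA5B, SEMA6A, SEMA6C, SEMA6D and SEMA7A.

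**Figure D1:**
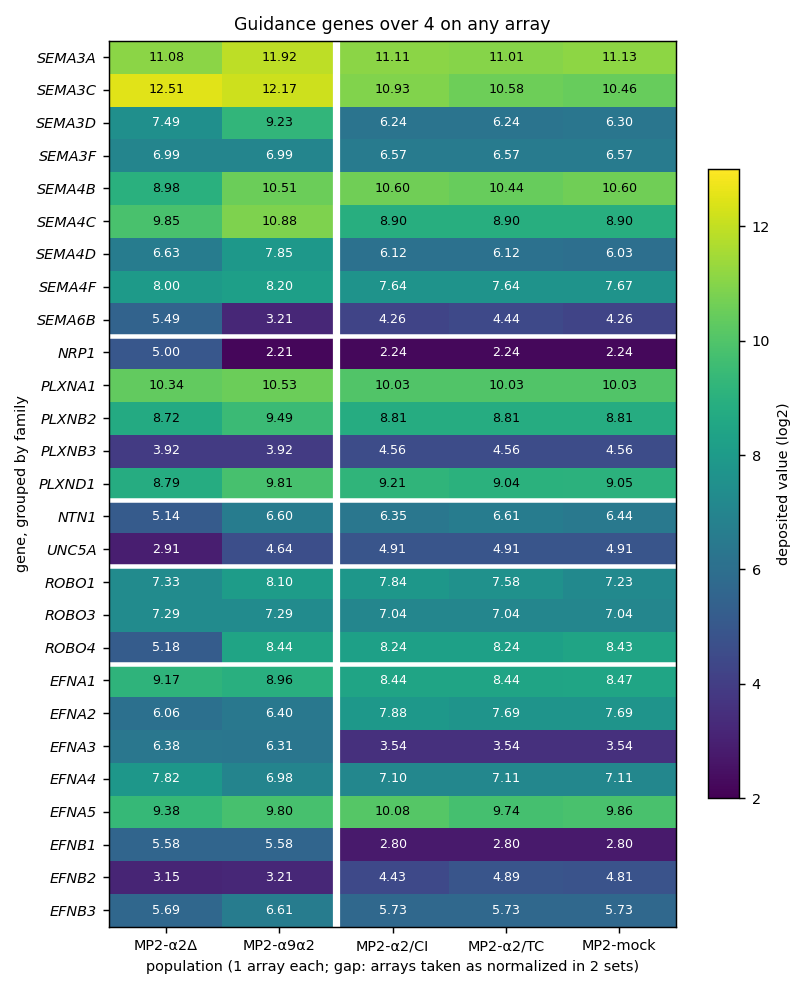
Deposited log2 value of the 27 guidance genes over 4 on any array, as colour and number, with 1 row per gene by family and 1 column per population (1 array each), and a gap between the 2 inferred normalization sets. The MP2-α2/CI, MP2-α2/TC and MP2-mock columns are nearly alike, while ROBO4 reads 5.18 in MP2-α2Δ and 8.24 to 8.44 in the other populations. Colours compare populations within a gene, not genes with each other.

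The first question was whether full-length α2, on collagenI or in standard culture, went with other levels of these genes than in MP2-mock cells. No guidance gene was 2-fold apart in any of these 3 comparisons. For MP2-α2/TC over MP2-mock, 0 of 37 genes above the floor were called, against 0.67% of all genes, and differences ran from -0.18 (ROBO4) to 0.35 (ROBO1). For MP2-α2/CI over MP2-mock, 0 of 36 were called, against 0.65% of all genes, with a range from -0.38 (EFNB2) to 0.61 (ROBO1). For MP2-α2/CI over MP2-α2/TC, 0 of 37 were called, against 0.19% of all genes, with a range from -0.47 (EFNB2) to 0.35 (SEMA3C). At background shares this low, counts of 0 among so few genes do not set the guidance genes apart from other genes. The median difference was 0 in all 3 comparisons, for the guidance genes as for all genes.

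Many values were not only close but identical. Of the 36 guidance genes above the floor on these 3 arrays, 19 (52.8%) had the same value on all of them within 1e-06, against 32.4% of all genes. PLXNB2, a receptor of transmembrane semaphorins, read 8.81 on each, and SEMA4C, one of its ligands, read 8.90 on each. ROBO3, a receptor that acts as commissural axons cross the midline, read 7.04 on each, and SEMA3F, a secreted ligand of NRP2, 6.57 on each. MP2-α2Δ and MP2-α9α2 cells also shared values, in 14 of 38 genes (36.8%) against 23.6% of all genes, among them 7.29 for ROBO3 and 6.99 for SEMA3F. How the deposited normalization gave equal values was not tested.

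Among the genes that did move on these arrays, the receptor ROBO1 had the largest difference by the brightest probe set of each gene. ROBO1, the main receptor for SLIT proteins in many tissues, read 7.84 in MP2-α2/CI and 7.58 in MP2-α2/TC cells, against 7.23 in MP2-mock cells. By these probe sets it was the 1 guidance gene at least 1.5-fold apart, at 1.52-fold for MP2-α2/CI over MP2-mock, where 1.87% of all genes passed 1.5-fold. SEMA3C, a secreted semaphorin known for its part in the cardiac outflow tract, read 10.93 in MP2-α2/CI and 10.58 in MP2-α2/TC cells, against 10.46 in MP2-mock cells. Its other probe set ran in the same order, with 6.58 in MP2-α2/CI, 6.17 in MP2-α2/TC and 5.62 in MP2-mock cells, and the 1.95-fold higher value in MP2-α2/CI relative to MP2-mock cells exceeded the difference of ROBO1. The ephrin EFNB2, a ligand of EPHB4 in blood vessels, was instead lowest on collagenI, with 4.43 in MP2-α2/CI, 4.89 in MP2-α2/TC and 4.81 in MP2-mock cells. EFNA5, a lipid-anchored ephrin, read 10.08 in MP2-α2/CI, 9.74 in MP2-α2/TC and 9.86 in MP2-mock cells. ROBO1 and SEMA3C were thus highest in MP2-α2/CI and lowest in MP2-mock cells, by less than 2-fold, and EFNA5 was lowest in MP2-α2/TC cells.

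**Figure D2:**
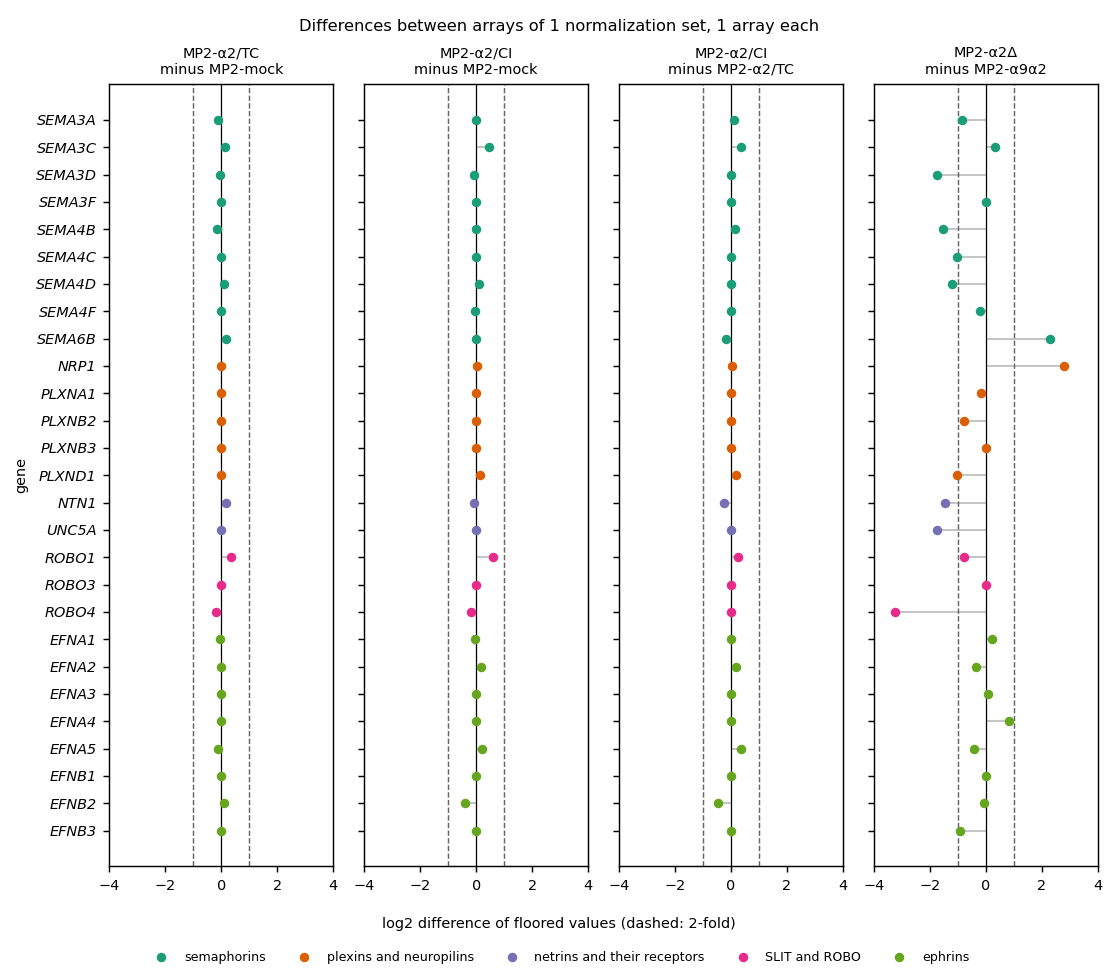
Log2 difference of the floored values for the same 27 genes (rows, coloured by family) in the 4 comparisons within a normalization set (panels, 1 array each), with dashed lines at 2-fold. No gene passes 2-fold in the panels for MP2-α2/TC and MP2-α2/CI, and 10 do in the panel for MP2-α2Δ minus MP2-α9α2, 8 of them on the lower side.

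MP2-α2Δ and MP2-α9α2 cells were further apart. Of 40 guidance genes above the floor in either, 10 (25%) were at least 2-fold apart, against 15% of all genes. Only NRP1 and SEMA6B were higher in MP2-α2Δ cells, 5% of the guidance genes against 10.1% of all genes. The 8 that were lower in MP2-α2Δ cells, ROBO4, SEMA3D, UNC5A, SEMA4B, NTN1, SEMA4D, SEMA4C and PLXND1, made up 20%, against 4.97% of all genes. The median difference was 0 for the guidance genes and for all genes, and 14 of the 40 did not differ at all. With 1 array each these shares describe the arrays and have no error. The summed level of 7 nervous tissue markers, set by MBP, was also lower, at 10.64 in MP2-α2Δ against 11.92 in MP2-α9α2 cells, and its part in these differences was not tested. By family, those called were 5 of 14 semaphorins, 2 of 10 plexins and neuropilins and 2 of 3 netrin pathway genes above the floor. Of the SLIT and ROBO genes 1 of 5 was called, and of the ephrins 0 of 8. With so few genes per family, and 15% of all genes called, a difference between families was not tested. With the mean of all probe sets of a gene in place of the brightest one, 2 of the 10 calls remained, ROBO4 and SEMA4B, where 9.39% of all genes were called. The other 8 calls, and with them the 25% against 15% of all genes, thus depended on the choice of probe set.

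Among the receptors, ROBO4 had the largest difference of any guidance gene. ROBO4, the roundabout receptor found mainly in vascular endothelium, read 5.18 in MP2-α2Δ, 8.44 in MP2-α9α2, 8.24 in both MP2-α2/CI and MP2-α2/TC, and 8.43 in MP2-mock cells. It was 9.54-fold lower in MP2-α2Δ relative to MP2-α9α2 cells (log2 difference -3.25), and by this probe set MP2-α2Δ was the 1 population that stood apart. The summed level of 5 endothelial markers was 5.30 in MP2-α2Δ, 5.32 in MP2-α9α2 and 4.78 to 4.82 in the other populations, and its part in the ROBO4 values was not tested. Among them CLDN5 read 4.37 in MP2-α2Δ, 4.41 in MP2-α9α2 and 2.67 in the others, PECAM1 and CDH5 both read 2.21 in MP2-α2Δ, 2.21 in MP2-α9α2 and 2.49 to 2.78 in the others, and VWF was at the minimum on all arrays. A weaker ROBO4 probe set read 2.74 in each of MP2-α2Δ and MP2-α9α2 cells, with 5.22 to 5.44 in the others, so it did not share the difference between the 2. UNC5A, a netrin receptor that triggers cell death in the absence of its ligand, read 2.91 in MP2-α2Δ, 4.64 in MP2-α9α2 and 4.91 in each of the other populations, a 3.31-fold lower value in MP2-α2Δ relative to MP2-α9α2 cells. The value in MP2-α2Δ cells was close to the floor of 2.21, so that with a floor at 4 the difference was -0.64 and not called, and the other UNC5A probe set lay near the minimum on every array. PLXND1, the receptor of SEMA3E, read 8.79 in MP2-α2Δ, 9.81 in MP2-α9α2, 9.21 in MP2-α2/CI, 9.04 in MP2-α2/TC and 9.05 in MP2-mock cells. It was 2.02-fold lower in MP2-α2Δ relative to MP2-α9α2 cells, at the edge of the call, and a further probe set read 8.06 in MP2-α2Δ against 8.59 in MP2-α9α2 cells, under 2-fold. In PLXND1, then, MP2-α2Δ was the lowest population, and MP2-α9α2 was the highest as deposited, with a difference from MP2-mock cells of 0.75 as deposited, -0.05 after centring and 0.06 after quantile normalization.

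The neuropilin NRP1, co-receptor for SEMA3A and for VEGF, was the largest difference in the other direction. It read 5.0 in MP2-α2Δ cells, against 2.21 in MP2-α9α2 cells and 2.24 in each of MP2-α2/CI, MP2-α2/TC and MP2-mock cells, where it did not pass the floor. It was therefore at least 6.94-fold higher in MP2-α2Δ relative to MP2-α9α2 cells, a bound set by the floor. The signal came mainly from 1 of its 4 probe sets, since a further one read 2.55 in MP2-α2Δ cells and 2 were at the minimum on every array.

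Among the ligands, 5 semaphorins and netrin-1 were called. SEMA3D, a secreted semaphorin, read 7.49 in MP2-α2Δ, 9.23 in MP2-α9α2, 6.24 in MP2-α2/CI and in MP2-α2/TC, and 6.30 in MP2-mock cells, and was 3.32-fold lower in MP2-α2Δ relative to MP2-α9α2 cells. SEMA4B, a transmembrane semaphorin, read 8.98 in MP2-α2Δ, 10.51 in MP2-α9α2, 10.60 in MP2-α2/CI, 10.44 in MP2-α2/TC and 10.60 in MP2-mock cells. SEMA3D was thus highest in MP2-α9α2 cells, whereas SEMA4B was set apart by its low value in MP2-α2Δ cells (2.90-fold lower than in MP2-α9α2 cells), by the single probe set that measured it. NTN1, the founding attractant of the netrin family, followed the same form as SEMA4B, with 5.14 in MP2-α2Δ, 6.60 in MP2-α9α2, 6.35 in MP2-α2/CI, 6.61 in MP2-α2/TC and 6.44 in MP2-mock cells. Its value in MP2-α2Δ cells was 2.76-fold lower than in MP2-α9α2 cells, and its 2 other probe sets were at the minimum on every array.

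SEMA4D and SEMA4C, membrane semaphorins that bind B-class plexins, were both highest in MP2-α9α2 cells by their brightest probe sets. SEMA4D read 6.63 in MP2-α2Δ, 7.85 in MP2-α9α2, 6.12 in MP2-α2/CI and in MP2-α2/TC, and 6.03 in MP2-mock cells, a 2.33-fold lower value in MP2-α2Δ relative to MP2-α9α2 cells. SEMA4C read 9.85 in MP2-α2Δ, 10.88 in MP2-α9α2 and 8.90 in each of the other populations, and was 2.04-fold lower in MP2-α2Δ relative to MP2-α9α2 cells. The 2 SEMA4C probe sets did not rank the populations alike, since the other read 7.11 in MP2-α2Δ, 7.77 in MP2-α9α2, 8.28 in MP2-α2/CI, 8.52 in MP2-α2/TC and 8.78 in MP2-mock cells, and only the lower value in MP2-α2Δ relative to MP2-α9α2 cells was common to both. SEMA6B, a transmembrane ligand of A-class plexins, was the semaphorin that ran the other way. It read 5.49 in MP2-α2Δ, 3.21 in MP2-α9α2, 4.26 in MP2-α2/CI, 4.44 in MP2-α2/TC and 4.26 in MP2-mock cells, and was 4.87-fold higher in MP2-α2Δ relative to MP2-α9α2 cells. Its 2 other probe sets, of the kind that can read several transcripts, did not share this difference. They gave 2.71 and 2.21 in both MP2-α2Δ and MP2-α9α2 cells and 4.61 and 2.58 in each of the other populations, so that they were lower in MP2-α2Δ than in MP2-mock cells as deposited, where the brightest one was higher.

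**Figure D3:**
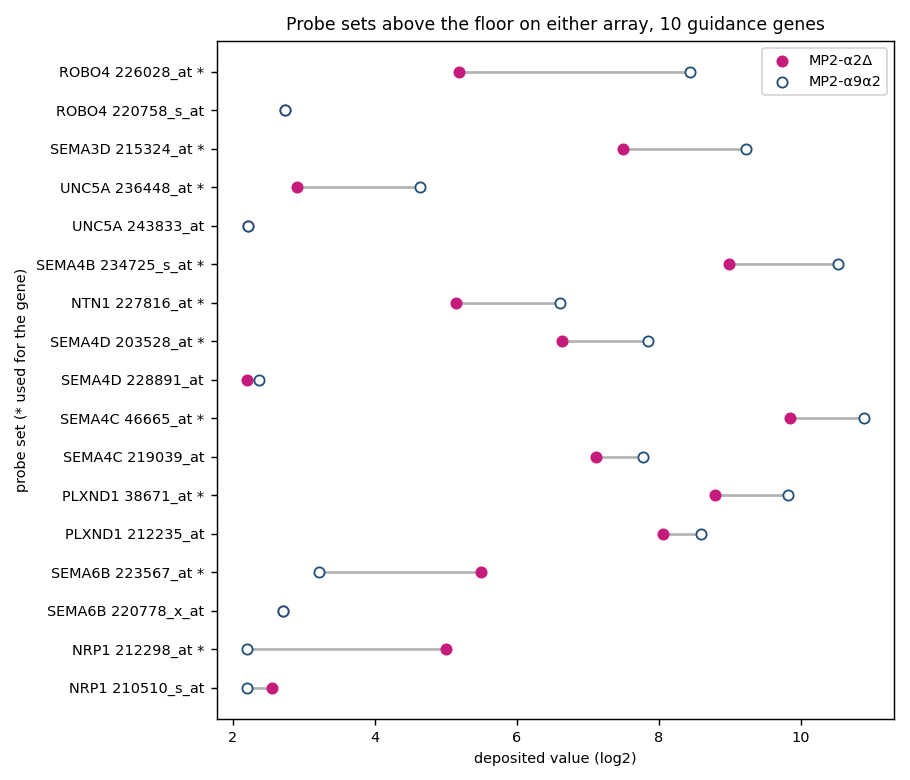
Deposited log2 values in MP2-α2Δ (filled) and MP2-α9α2 (open) for each probe set above the floor in either population, of the 10 genes 2-fold apart, 1 array each, with the probe set used for the gene starred; where the values coincide, only the open point shows. The difference is in the same direction for both probe sets of SEMA4C, PLXND1, SEMA4D and NRP1, and is 0 in the second probe set of ROBO4, UNC5A and SEMA6B.

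Several genes lay just inside or just outside 2-fold. SEMA4C (-1.03) and PLXND1 (-1.01) were the nearest inside. EFNB3, an ephrin-B ligand, had a difference of -0.93, SEMA3A of -0.85, EFNA4, a lipid-anchored ephrin, of 0.84, ROBO1 of -0.77 and PLXNB2, a receptor of SEMA4C, of -0.77. Each of these 5 was under 2-fold, and EFNA4 was the 1 that was higher in MP2-α2Δ cells. SEMA3A, the repellent that signals through NRP1, read 11.08 in MP2-α2Δ, 11.92 in MP2-α9α2, 11.11 in MP2-α2/CI, 11.01 in MP2-α2/TC and 11.13 in MP2-mock cells. EFNB3 read 5.69 in MP2-α2Δ, 6.61 in MP2-α9α2 and 5.73 in each of the other populations. PLXNB2 read 8.72 in MP2-α2Δ, 9.49 in MP2-α9α2 and 8.81 in each of the other populations. In all 3, MP2-α9α2 had the highest value as deposited, but after centring its difference from MP2-mock cells was -0.01 for SEMA3A, -0.13 for PLXNB2 and 0.08 for EFNB3. After quantile normalization it was 0.25 for SEMA3A, -0.03 for PLXNB2 and 0.05 for EFNB3.

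The 3 genes with the largest lower values in MP2-α2Δ relative to MP2-α9α2 cells, ROBO4, SEMA3D and UNC5A, are shown with the 250 bases before their RefSeq start (assembly GRCh38.p14), each written 5′ to 3′ on the strand of the gene, because these are the sequences in front of the genes with the lowest relative levels in MP2-α2Δ cells. ROBO4 lies on the minus strand of chromosome 11 (chr11:124897866-124898115), SEMA3D on the minus strand of chromosome 7 (chr7:85187057-85187306), and UNC5A on the plus strand of chromosome 5 (chr5:176810309-176810558). Capitals mark the GC box, searched as GGGCGG and as CCGCCC on the other strand.
ROBO4: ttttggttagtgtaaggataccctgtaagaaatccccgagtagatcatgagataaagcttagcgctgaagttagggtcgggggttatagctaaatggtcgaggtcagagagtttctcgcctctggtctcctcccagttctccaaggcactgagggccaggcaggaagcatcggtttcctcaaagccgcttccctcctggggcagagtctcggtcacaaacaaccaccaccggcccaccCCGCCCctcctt
SEMA3D: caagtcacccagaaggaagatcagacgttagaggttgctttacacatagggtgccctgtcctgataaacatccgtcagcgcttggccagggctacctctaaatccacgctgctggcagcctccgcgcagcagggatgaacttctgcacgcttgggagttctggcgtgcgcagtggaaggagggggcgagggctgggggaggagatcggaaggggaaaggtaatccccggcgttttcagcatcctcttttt
UNC5A: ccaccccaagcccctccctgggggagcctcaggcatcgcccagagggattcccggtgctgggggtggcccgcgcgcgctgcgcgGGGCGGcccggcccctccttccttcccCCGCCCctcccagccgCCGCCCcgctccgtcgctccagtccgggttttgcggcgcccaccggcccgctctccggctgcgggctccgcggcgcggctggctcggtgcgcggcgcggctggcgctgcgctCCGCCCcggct
The ROBO4 window held 1 GC box, the UNC5A window 4 and the SEMA3D window 0, while 42.6% of 35116 windows of this length held at least 1 and 7.63% held 4 or more. The windows had a GC content of 54.8% for ROBO4, 57.6% for SEMA3D and 81.2% for UNC5A, against a median of 58% over all windows. None of the 3 held TATAAA, which 10.7% of windows held on either strand, or CCGGAA, which 14.5% held. The 3 promoters therefore shared none of the motifs searched, and a missing match says only that these letters are not in this window. Among the other genes called, the window of SEMA4D held 1 GC box, that of SEMA4C 4 and that of PLXND1 9, and the 3 windows of SEMA4B held 5, 3 and 0, with CCGGAA in 1 of them. NRP1, SEMA6B and NTN1 were not matched to a window.

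Between the 2 normalization sets, values are given side by side, since as deposited the median of all probe sets above the floor was higher than in MP2-mock cells by 0.53 in MP2-α2Δ cells and by 0.54 in MP2-α9α2 cells. For MP2-α2Δ over MP2-mock, 12 of 41 guidance genes were 2-fold apart, 6 higher and 6 lower, against 37.1% of all genes, 30.2% higher and 6.91% lower. After centring each array on its median the split was 4 higher and 13 lower, against 11.4% and 23.3% of all genes, and after quantile normalization over the 5 arrays it was 4 and 9, against 14.2% and 16.6%. For MP2-α9α2 over MP2-mock, 9 of 39 were 2-fold apart, 6 higher and 3 lower, against 42.7% of all genes (31.7% higher and 11% lower), with 5 and 8 after centring (14.9% and 25.8% of all genes) and 6 and 4 after quantile normalization (17.5% and 20.1%). For MP2-α2Δ over MP2-α2/CI, where the substrate was the same, 12 of 41 were 2-fold apart, 6 higher and 6 lower, against 36.6% of all genes (29.9% higher and 6.65% lower), with 3 and 14 after centring (10.9% and 22.5% of all genes) and 4 and 10 after quantile normalization (13.4% and 15.7%). After centring, the lower genes included SLIT1, SEMA3B and SEMA6C in all 3 comparisons and PLXNA3 in the 2 with MP2-α2Δ. These genes read at most 3.45 on every array. Their deposited differences for MP2-α2Δ minus MP2-mock ran only from -0.55 (SEMA6C) to -0.19 (PLXNA3), so that the scaling carried them past 2-fold. The split between higher and lower thus depended on the scaling, and the genes past 2-fold under all 3 scalings are described first. These comparisons share the MP2-mock or the MP2-α2Δ array, so that a gene called in several of them was not measured independently.

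Of the ephrins, none of which differed by 2-fold between MP2-α2Δ and MP2-α9α2 cells, 4 were past 2-fold from MP2-mock cells in each of these populations. EFNA3, a lipid-anchored ligand of EphA receptors, read 6.38 in MP2-α2Δ, 6.31 in MP2-α9α2 and 3.54 in each of MP2-α2/CI, MP2-α2/TC and MP2-mock cells. EFNB1, a transmembrane ligand of EphB receptors, read 5.58 in both MP2-α2Δ and MP2-α9α2 cells, against 2.80 in each of the other 3. Both were higher than in MP2-mock cells under all 3 scalings, EFNA3 by 1.99 to 2.83 on the log2 scale in MP2-α2Δ cells and EFNB1 by 1.95 to 2.79. EFNA2 and EFNB2 ran the other way under all 3 scalings. EFNA2, a further EphA ligand, read 6.06 in MP2-α2Δ against 6.40 in MP2-α9α2 cells, 7.88 in MP2-α2/CI and 7.69 in MP2-α2/TC cells, and 7.69 in MP2-mock cells. EFNB2 read 3.15 in MP2-α2Δ, 3.21 in MP2-α9α2 and 4.81 in MP2-mock cells. These 4 ephrins were thus a pair above and a pair below MP2-mock cells. Because each normalization set holds other populations, set and population cannot be told apart for them. EFNA1 read 9.17 in MP2-α2Δ, 8.96 in MP2-α9α2, 8.44 in MP2-α2/CI and in MP2-α2/TC, and 8.47 in MP2-mock cells, under 2-fold apart. EFNA5 likewise stayed within 2-fold as deposited by its brightest probe set, with 9.38 in MP2-α2Δ, 9.80 in MP2-α9α2 and 9.86 in MP2-mock cells, but the difference of MP2-α2Δ from MP2-mock cells was -1.33 after centring and -1.18 after quantile normalization. Another EFNA5 probe set was 3.14-fold lower in MP2-α2Δ relative to MP2-mock cells as deposited, with 7.40 in MP2-α2Δ, 8.38 in MP2-α9α2 and 9.05 in MP2-mock cells, and a further one ran the other way, with 9.21 in MP2-α2Δ, 9.46 in MP2-α9α2 and 8.64 in MP2-mock cells. EFNA4 read 7.82 in MP2-α2Δ, 6.98 in MP2-α9α2 and 7.11 in MP2-mock cells, and its difference for MP2-α2Δ minus MP2-mock was 0.71 as deposited but -0.13 after centring and after quantile normalization.

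Other genes were past 2-fold from MP2-mock cells under all 3 scalings in 1 of the 2 populations, by their brightest probe sets. For these too no share over all genes is given. In MP2-α2Δ cells these were NRP1 and SEMA3C, which were higher, and ROBO4, UNC5A, SEMA4B and NTN1, which were lower. ROBO4 had a difference of -3.25 as deposited, -4.09 after centring and -4.05 after quantile normalization for MP2-α2Δ minus MP2-mock. By its weaker probe set, however, ROBO4 was lower than in MP2-mock cells in both populations. That probe set read 2.74 in each of MP2-α2Δ and MP2-α9α2 and 5.22 in MP2-mock cells, 5.57-fold lower as deposited. SEMA3C read 12.51 in MP2-α2Δ, 12.17 in MP2-α9α2 and 10.46 in MP2-mock cells, and its other probe set read 8.21 in MP2-α2Δ, 7.91 in MP2-α9α2 and 5.62 in MP2-mock cells. It was thus higher than in MP2-mock cells in MP2-α9α2 cells too. There the difference by the brightest probe set was 1.72 as deposited and 1.19 after quantile normalization, and fell under 2-fold only after centring, at 0.91. In MP2-α9α2 cells SEMA3D, SEMA4C and SEMA4D were higher and SEMA6B was lower than in MP2-mock cells under all 3 scalings, although the other SEMA4C probe set was lower in MP2-α9α2 than in MP2-mock cells, as given above. SEMA3D was also past 2-fold above MP2-mock cells in MP2-α2Δ cells as deposited, but not after centring or quantile normalization. SEMA3A was close to level by its main probe set, yet its other probe sets read 8.89 and 6.91 in MP2-α2Δ, 9.59 and 7.87 in MP2-α9α2 and 5.60 and 4.92 in MP2-mock cells, so the probe sets of SEMA3A did not give a common answer across the sets. PLXNA1, a plexin that pairs with neuropilins to receive SEMA3 signals, read 10.34 in MP2-α2Δ, 10.53 in MP2-α9α2 and 10.03 in MP2-mock cells, and SEMA4F, a transmembrane semaphorin, read 8.0 in MP2-α2Δ, 8.20 in MP2-α9α2 and 7.67 in MP2-mock cells. Both stayed within 2-fold by these probe sets. The other SEMA4F probe sets, as deposited, read 5.59 and 8.15 in both MP2-α2Δ and MP2-α9α2 cells, 3.64-fold and 2.28-fold above the 3.72 and 6.96 in MP2-mock cells. A further SEMA3F probe set likewise read 5.78 in MP2-α2Δ, 5.76 in MP2-α9α2 and 4.22 in MP2-mock cells, while the brightest one read 6.99 in both populations and 6.57 in MP2-mock cells. For SEMA4F and SEMA3F, then, the call of a difference from MP2-mock cells depended on the probe set. PLXNB3, a receptor of the plexin-B class, read 3.92 in both MP2-α2Δ and MP2-α9α2 cells and 4.56 in MP2-mock cells, under 2-fold lower as deposited, and its difference for MP2-α2Δ minus MP2-mock was -1.48 after centring and -1.25 after quantile normalization.

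**Figure D4:**
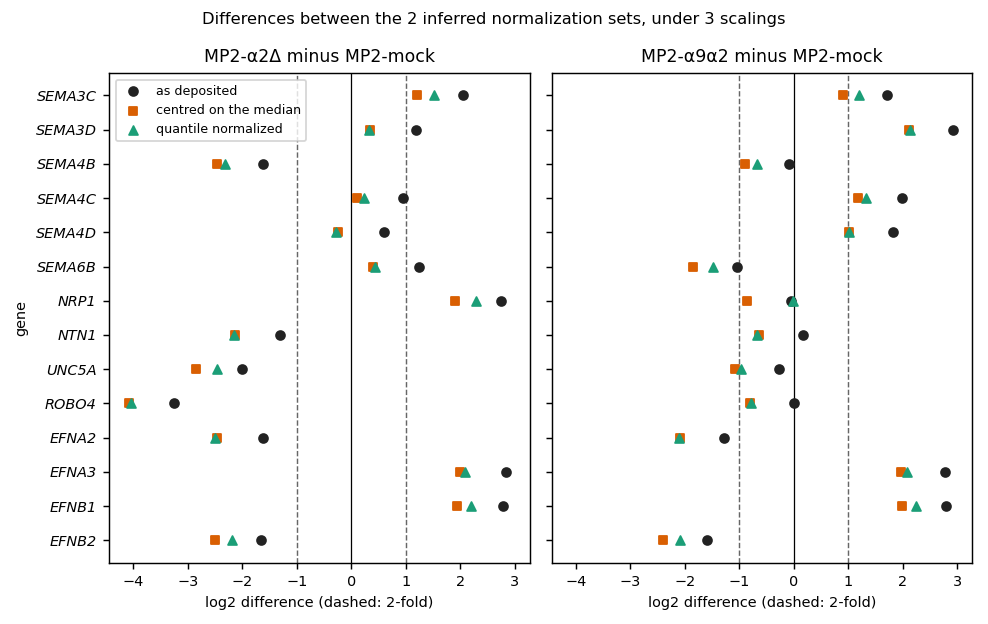
Log2 difference from MP2-mock cells for MP2-α2Δ (left) and MP2-α9α2 (right), 1 array each, with the deposited values (black circles), after centring each array on its median (orange squares) and after quantile normalization (green triangles), for 14 guidance genes; dashed lines mark 2-fold. EFNA3 and EFNB1 lie past 2-fold on the higher side and EFNA2 and EFNB2 on the lower side in both panels with every scaling. By its brightest probe set, the one shown, ROBO4 lies at -3.25 to -4.09 in the panel for MP2-α2Δ alone.

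The receptors and intracellular partners of these genes were read from lists of genes on the same arrays. No gene of the 4 lists was 2-fold apart among MP2-α2/CI, MP2-α2/TC and MP2-mock cells, where 0.19% to 0.67% of all genes were. At such shares this does not set the lists apart from other genes. Of 8 Eph receptors above the floor in MP2-α2Δ or MP2-α9α2 cells, out of 13 on the array, 1 was higher in MP2-α2Δ cells and 0 were lower. This was EPHA7, a receptor of ephrin-A ligands, at 6.73 in MP2-α2Δ cells, against 2.21 in MP2-α9α2 cells and 2.24 in the other 3 populations, at least 23.0-fold higher in MP2-α2Δ relative to MP2-α9α2 cells. EPHA7 and NRP1 thus had the same form, above the floor in MP2-α2Δ cells and in no other population. The receptors EPHA2 and EPHA4 were above the floor on all 5 arrays, at 10.61 to 11.23 for EPHA2 and 10.71 to 11.81 for EPHA4.

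Of 13 co-receptors and other guidance ligands above the floor, 4 were lower in MP2-α2Δ relative to MP2-α9α2 cells and 0 were higher. VEGFC, a growth factor that binds NRP2, read 8.76 in MP2-α2Δ against 11.61 in MP2-α9α2 cells, and GPC1, a heparan sulphate proteoglycan that binds SLIT proteins, read 7.33 in MP2-α2Δ against 9.76 in MP2-α9α2 cells. The others were RGMB, a ligand of the netrin receptor neogenin, and L1CAM, a partner of NRP1 in the SEMA3A response. RGMB read 9.42 in MP2-α2Δ against 10.97 in MP2-α9α2 cells, and L1CAM 7.42 in MP2-α2Δ against 8.67 in MP2-α9α2 cells. All 4 were thus lower in MP2-α2Δ cells within this pair of arrays. As deposited, the other populations lay between the 2, at 10.11 to 10.29 for VEGFC, 7.71 to 7.92 for GPC1, 10.22 to 10.41 for RGMB and 7.61 to 8.03 for L1CAM.

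Of 32 cytoplasmic effectors above the floor, 3 were higher and 5 lower in MP2-α2Δ relative to MP2-α9α2 cells. TIAM1, an activator of RAC, read 6.91 in MP2-α2Δ against 9.43 in MP2-α9α2 cells, 9.38 in MP2-α2/CI and 9.58 in MP2-α2/TC cells, and 9.14 in MP2-mock cells, so that its lowest deposited value was in MP2-α2Δ cells. DPYSL2, the collapsin response mediator of the SEMA3A pathway, read 9.65 in MP2-α2Δ against 12.10 in MP2-α9α2 cells, and LIMK2, a kinase of the actin regulator cofilin, 5.80 in MP2-α2Δ against 7.47 in MP2-α9α2 cells. DPYSL5, a relative of DPYSL2, read 6.89 in MP2-α2Δ against 8.49 in MP2-α9α2 cells. As deposited, the other populations lay between these 2 for DPYSL2 (10.48 to 10.68) and DPYSL5 (7.67 to 7.68). For LIMK2 they lay under both, at 5.17 to 5.29. Of the 4 processing proteases above the floor, 0 were 2-fold apart. The effectors that were higher were CDK5, a kinase that phosphorylates DPYSL2, SRGAP3, of the SLIT-ROBO GTPase-activating family, and ENAH, an actin regulator. CDK5 read 10.05 in MP2-α2Δ against 8.46 in MP2-α9α2 cells, SRGAP3 6.14 in MP2-α2Δ against 4.67 in MP2-α9α2 cells, and ENAH 12.47 in MP2-α2Δ against 11.31 in MP2-α9α2 cells. In the other populations, as deposited, CDK5 read 9.33 to 9.66, SRGAP3 2.84 and ENAH 11.21 to 11.30. Values lower in MP2-α2Δ relative to MP2-α9α2 cells were thus found in 4 of 13 co-receptors, 5 of 32 effectors, 0 of 8 Eph receptors and 0 of 4 proteases. The backgrounds were 4.97% lower and 10.1% higher over all genes. At such a background, counts of 0 among 8 and 4 genes do not set the Eph receptors and proteases apart.

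**Figure D5:**
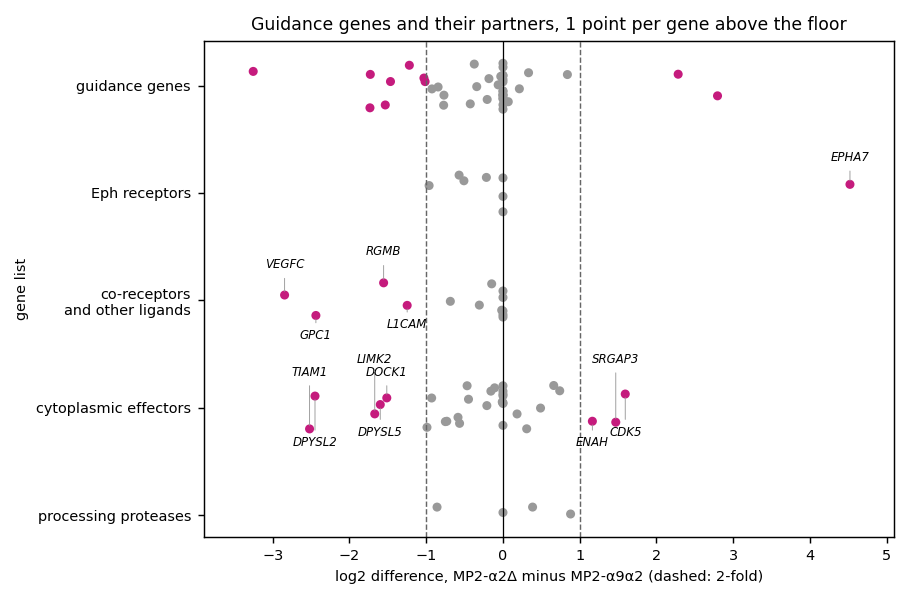
Log2 difference of the floored values for MP2-α2Δ minus MP2-α9α2 (1 array each), with 1 point per gene above the floor, for the guidance genes and 4 lists of their partners; coloured points are at least 2-fold apart (dashed lines), and those of the partner lists carry names. EPHA7 is a lower bound at 4.52, and the 4 co-receptors and ligands 2-fold apart, VEGFC, GPC1, RGMB and L1CAM, are all on the lower side.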

How the data were processed

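Total RNA of 5 MIAPaCa2 populations was hybridised to Affymetrix arrays, 1 per population. The values are those the authors deposited after normalization, read here as log2 from their range. GCRMA and MAS5 are named in the submitters' processing notes, which give neither's role. The log base and the arrays normalized together are not given in the sources used here, and the 2 sets were inferred from shared minima. Background methods of this kind pull dim probe sets to a common minimum, so that small changes in them can be lost.

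Of 54675 probe sets, 62 controls were left out, and 1801 with several gene symbols and 11721 with none were not named. Symbols were brought up to date through a RefSeq table (GRCh38.p14), which also gave the promoter windows, for 46 of the 55 guidance genes. Values were raised to the floor of their array (95th percentile over 107 probe sets of odorant receptors), and log2 differences and 2-fold counts were computed in Python 3.11.15 with pandas 2.3.3 and NumPy 2.4.6, in code tested on simulated data. No p-values were computed, since there was 1 array per population, and signal over the floor limits the precision.

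A gene was given with all its values where it was 2-fold apart within a set, over 4-fold apart between any 2 arrays, or over 8 on any array, which held for 20 of the 55. A few others (such as EFNB3, SEMA3F, PLXNB3, EPHA2, EPHA4, CDK5, SRGAP3 and ENAH) were named after their values were seen. Of each partner list at most 4 genes 2-fold apart were named by rule. The gene set, partner lists and marker lists were chosen with earlier results of these data known. Alternatives were other floors, scalings, thresholds and choices of probe set.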

Additional observations from a re-analysis of the deposited data

Results flagged for a closer look

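ROBO1, the SLIT receptor, moved in opposite directions in 2 comparisons, by at least 1.5-fold in each. Its log2 difference was 0.61 for MP2-α2/CI minus MP2-mock and -0.77 for MP2-α2Δ minus MP2-α9α2. Its level was 7.33 in MP2-α2Δ against 8.10 in MP2-α9α2 cells, and 7.84 in MP2-α2/CI cells, against 7.23 in MP2-mock cells. The comparisons rest on different normalization sets with 1 array per population, and the difference between them was not tested.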

How the results depend on the processing

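No paired analysis was possible because each population had 1 array. At 1.5-fold, 1 guidance gene (ROBO1) was called for MP2-α2/CI over MP2-mock (1.87% of all genes), where 0 were called at 2-fold, and 16 were called for MP2-α9α2 over MP2-mock, where 59.8% of all genes were. At 3-fold, 5 were called for MP2-α2Δ over MP2-α9α2 (2 higher, 3 lower), against 4.63% of all genes, and 7 for MP2-α2Δ over MP2-α2/CI, against 17.5%. With the mean of all probe sets of a gene in place of the highest, 2 of the 10 genes called for MP2-α2Δ over MP2-α9α2 remained, both lower, against 9.39% of all genes. With a floor at 4, the guidance genes above it numbered 24 in MP2-α2Δ, 23 in MP2-α9α2 and 24 in MP2-α2/TC cells, and UNC5A lost its call, at -0.64. Over 4 comparisons and all alternatives, 690 differences of the named guidance genes kept their side of the threshold, most of them under it. A further 14 fell short of it (8 of them with the mean of all probe sets) and 4 newly passed it. No called difference changed direction, and the direction of differences not called was not compared. Dim probe sets near the floor limit what can be seen, UNC5A, NRP1 and SEMA6B most among the genes called, and no value has a replicate.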
